A study of Mus musculus with 12 samples.

Results

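The genes described here are those of the cytosolic ribosomal proteins. A gene was included when a probe of the array carried an mRNA record of RefSeq whose mouse symbol starts with *Rpl* or *Rps* followed by a number, or is *Rplp0*, *Rplp1*, *Rplp2* or *Rpsa*, with the *Rps6k* kinase genes left out. By this rule 82 of the 20293 gene symbols on the array were found, with 172 of its 39429 probes. The rule uses gene symbols and no measured value. Where a gene had several probes, the brightest one on average stood for it, and 29 of the 82 genes had a single probe.

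The arrays measured liver RNA of male *db/db* mice, given as 8 weeks old for every group. These mice lack a working leptin receptor and become obese and diabetic, and the control mice carried the same genotype. One treatment was MgH2, a powder that releases H2 in contact with water, given once a day by gavage for 1, 3 or 7 days. The labels give its dose as 0.9 mg/kg, as does a figure legend of the study for these times, whereas its methods name higher doses. The controls received Mg(OH)2. The other treatment was drinking water with 0.8 mM H2 for 14 days, and the controls drank such water after degassing. RNA of 3 mice was combined into 1 pool, and each array set a treated pool labeled with Cy5 against a control pool labeled with Cy3, with 3 arrays in each of the 4 groups. The dyes were not swapped on any array, so that the dye bias of a probe and a response to the treatment cannot be told apart in its ratio. Between 51.8% and 56.5% of the spots of an array were above background in both channels. All values below are log2 ratios of the treated over the control pool of an array, as the authors deposited them, and the number of arrays limits their precision.

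Each cytosolic ribosome holds a single copy of nearly every ribosomal protein, arranged on the rRNA of a small and a large subunit, and the liver makes ribosomes in large numbers to supply plasma proteins. The genes of these proteins are transcribed at high and similar rates. Their mRNAs begin with a C followed by a run of pyrimidines, the terminal oligopyrimidine (TOP) motif, through which the mTOR pathway and the protein LARP1 set how much of each mRNA is translated. An array measures the amount of these mRNAs and not their translation.

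A shared start sequence is the best-known feature of these genes, and the bases around the annotated start show how it looks in members that differed in their ratios. The promoter table from RefSeq (build GRCm38.p6) held 62 of the 82 genes. Each window below runs from 10 bases before the annotated start to 20 bases after it, on the strand of the gene, with capitals for a C followed by at least 5 C or T. The first 6 windows hold such a run, and the last 3 do not. *Rpl35a* has 3 annotated starts, of which only the one shown has a run.
*Rpl35*, chr2:39005112-39005141, minus strand: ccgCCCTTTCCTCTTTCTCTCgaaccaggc
*Rpl35a*, chr16:33056472-33056501, plus strand: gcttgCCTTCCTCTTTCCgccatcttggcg
*Rpl38*, chr11:114668570-114668599, plus strand: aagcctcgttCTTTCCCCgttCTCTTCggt
*Rps10*, chr17:27635225-27635254, minus strand: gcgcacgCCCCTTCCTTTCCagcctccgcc
*Rps6*, chr4:86857348-86857377, minus strand: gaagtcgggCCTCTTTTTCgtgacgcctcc
*Rplp2*, chr7:141447641-141447670, plus strand: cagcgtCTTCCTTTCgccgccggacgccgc
*Rpl23*, chr11:97782420-97782449, minus strand: gtccggtcacgtggctgagtgggcggggcc
*Rps4x*, chrX:102189372-102189401, minus strand: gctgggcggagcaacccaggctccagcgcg
*Rplp0*, chr5:115559457-115559486, plus strand: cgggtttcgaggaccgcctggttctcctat

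A run of this kind lay in the window of 35 of the 62 genes (56.5%), compared with 24.9% of the 27025 genes in the table, counting a gene when any of its annotated starts had one. CTTTCC, which can be part of such a run, occurred within 50 bases of the start on the gene's strand in 30.6% of the ribosomal protein genes and in 5.43% of all genes. CCGGAAG, the core bound by factors of the ETS family, occurred on either strand of the 300 bases around the start in 41.9% compared with 9.93%. TATAAA within 50 bases before the start was found in 1.61% compared with 3.15%. Among the genes with a promoter entry, the run of pyrimidines was present in 7 of 14 that were called higher at any time, in 4 of 8 that were called lower and in 24 of 40 that were not called. A match describes the letters of an annotated window only, and a gene whose annotated start is off by a few bases can lack it here.

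Of the 82 genes, 78 had both channels above background on each of the 12 arrays. *Rpl36a* missed this on 1 array of the H2-water group and was tested for MgH2 only, which gave 79 genes tested with MgH2 and 78 with H2-water. *Rpl3l*, *Rpl10l* and *Rpl39l*, paralogs known mainly from muscle and testis, did not have both channels above background on any array. They were therefore left out of the main test, and signal in a single channel was not examined. The signals of the 78 genes were among the brightest on the array, with a median at the 96.1 percentile of all probes above background and 47 genes among the brightest 5%. No spot was saturated.

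As a whole, the ribosomal protein genes kept close to a ratio of 1. Their median log2 ratio was 0.030 after 1 day of MgH2, 0.0024 after 3 days, 0.0064 after 7 days and -0.029 after 14 days of H2-water. The medians of all probes tested were -0.0033, 0.0022, 0.0061 and -0.0049. The genes spread less than the other probes did. The SD of the mean ratios over the genes was 0.10, 0.10, 0.099 and 0.091, whereas it was 0.17, 0.22, 0.25 and 0.17 over all probes tested. A mean beyond 1.2-fold was found for 1, 1, 0 and 1 of these genes, and for 8.90%, 16.9%, 21.4% and 10.13% of all probes. In the other direction, the 95% interval of the mean, which uses the spread shared by all 12 arrays, lay within 1.2-fold for 70, 70, 71 and 72 genes. That held for 50.6%, 45.0%, 41.7% and 48.6% of all probes.

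The array medians of the 78 genes differed within the groups. They were 0.015, 0.038 and 0.043 on the 3 arrays of 1 day, -0.024, -0.017 and 0.063 at 3 days, -0.016, -0.014 and 0.053 at 7 days, and -0.046, 0.0062 and -0.038 at 14 days. Replicate 3 stood above the other 2 arrays at both 3 and 7 days. Without replicate 3 the group medians were -0.025 at 3 days and -0.023 at 7 days. Dividing each channel by its total, which is a reading of the study's methods, lowered the medians to -0.0050, -0.028, -0.019 and -0.051, and those of all probes to -0.038, -0.028, -0.019 and -0.027.

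**Figure D1:**
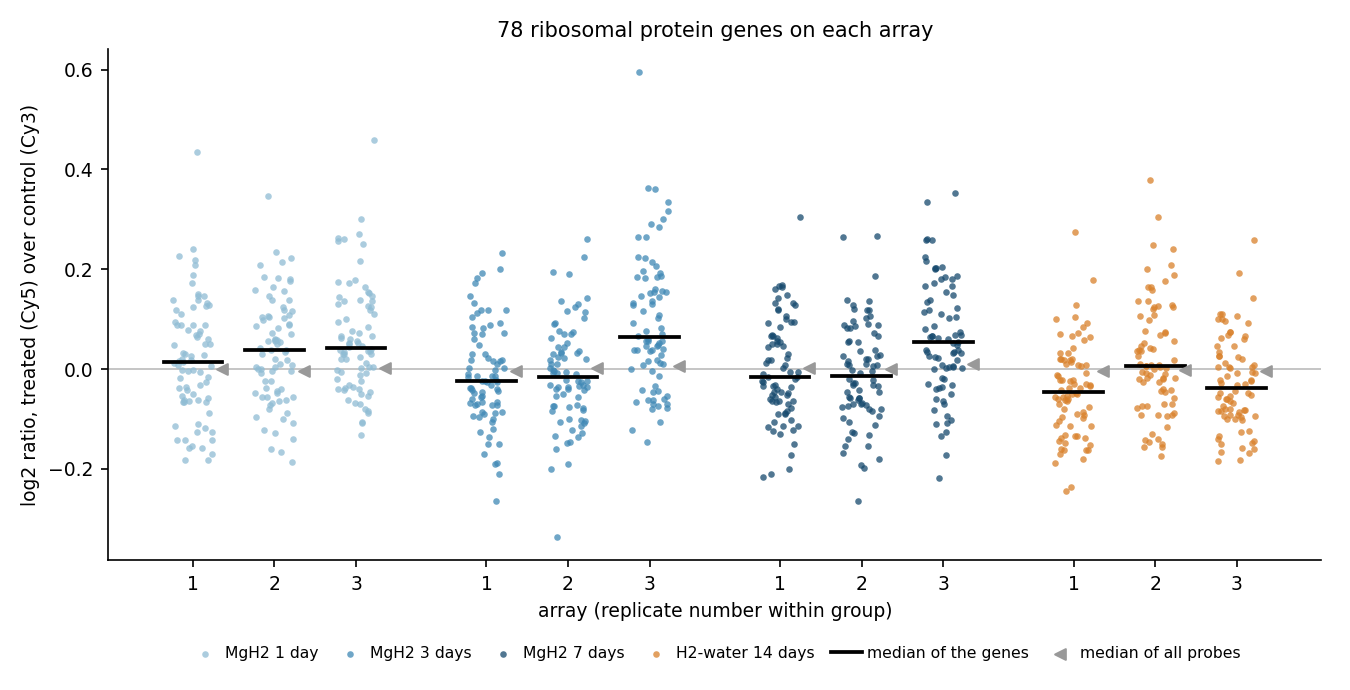
Log2 ratio of the treated over the control pool (vertical axis) for 78 ribosomal protein genes on each of the 12 arrays (horizontal axis, replicate number within each group). Each point is a gene, black lines mark the median of the genes and gray triangles the median of all probes above background on every array. The medians of the genes lie between -0.046 and 0.063, and replicate 3 is the highest at 3 and 7 days of MgH2.

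After 1 day of MgH2, 12 of the 79 genes tested were called changed at an adjusted P under 0.05 (limma with Benjamini-Hochberg adjustment over all probes tested), 10 higher and 2 lower. This was 15.2% of the genes, compared with 9.39% of all probes, of which 5.15% were called higher and 4.24% lower. After 3 days 21 were called, 15 higher and 6 lower, which was 26.6% compared with 23.4% of all probes (12.3% higher and 11.1% lower). After 7 days 24 were called, 16 higher and 8 lower, or 30.4% compared with 29.5% (15.3% higher and 14.3% lower). With H2-water 8 of 78 were called, 3 higher and 5 lower, or 10.3% compared with 8.84% (4.92% higher and 3.91% lower). The shares therefore lay near those of all probes at 3, 7 and 14 days, and above them at 1 day. Among the 852 brightest probes that carry none of these genes, 22.7%, 33.5%, 34.3% and 18.9% were called, which is more than among the ribosomal protein genes at each time.

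The division into higher and lower calls moved with the scaling. With each channel divided by its total, 5 genes were called higher and 9 lower at 1 day, 7 and 12 at 3 days, 6 and 9 at 7 days, and 2 and 11 at 14 days. Over all probes the calls moved the same way, with 717 higher and 1580 lower at 1 day, in place of 1013 and 833. They numbered 1759 and 2821 at 3 days, 2382 and 3351 at 7 days, and 790 and 1175 at 14 days. The ratios as deposited gave 2388 and 2149, 2973 and 2775, and 1005 and 799 at those times. After normexp background correction and loess normalization, 20 ribosomal protein genes were called higher and 1 lower at 1 day. Over all probes these counts were 1248 and 696. The calls also rest on the spread estimated from all 12 arrays. With only the 3 arrays of each group in the fit, 0 of these genes were called at 1, 3 and 7 days and 1 at 14 days, while 16, 14, 15 and 19 had an unadjusted P under 0.05 in those fits. Of all probes, 0.514%, 1.504%, 11.2% and 2.45% were still called, so that at 7 days the ribosomal protein genes lost their calls while many other probes did not. Without 1 of the replicates the count fell to between 2 and 3 at 1 day, 7 and 12 at 3 days, 8 and 10 at 7 days, and 2 at 14 days.

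**Figure D2:**
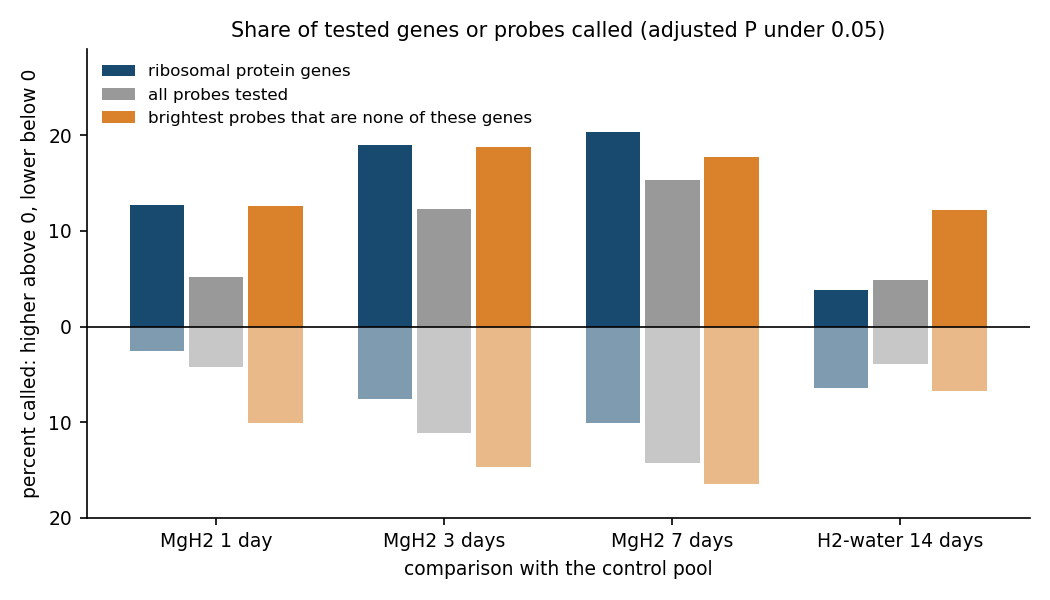
Percent of the ribosomal protein genes, of all probes tested and of the 852 brightest other probes that were called at an adjusted P under 0.05 (vertical axis, higher above 0 and lower below 0) in each of the 4 comparisons (horizontal axis). The ribosomal protein genes lie near all probes at 3, 7 and 14 days, and at 1 day 12.7% of them were called higher compared with 5.15% of all probes.

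Both subunits were represented among the calls. Of the 31 genes of the small subunit, 3, 5, 5 and 0 were called higher and 1, 1, 2 and 1 lower at 1, 3, 7 and 14 days. Of the genes of the large subunit, 48 with MgH2 and 47 with H2-water, 7, 10, 11 and 3 were higher and 1, 5, 6 and 4 lower. In all, 30 genes were called at 1 time or more, and 0 of them in both directions. The matching shares over all probes are not given here, so no conclusion is drawn from these counts. Calls at all 4 times were made for *Rpl23* and *Rpl7*, which were higher, and for *Rplp1* and *Rps4x*, which were lower. At 3 times they were made for *Rpl26*, *Rpl35*, *Rpl4*, *Rpl5*, *Rplp0* and *Rps10*. Of the 78 genes, 14 lay above 0 and 10 below 0 on all 12 arrays, whereas 7.26% and 5.80% of all such probes did.

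*Rpl23* encodes a protein of the large subunit that also binds MDM2, the ligase of p53. Its ratio was 0.22, 0.23 and 0.30 on the arrays of 1 day, 0.19, 0.26 and 0.32 at 3 days, 0.31, 0.26 and 0.19 at 7 days, and 0.28, 0.31 and 0.26 with H2-water. All 12 arrays were above 0, and the 4 groups overlapped. The mean was 0.25 (SE 0.036, adjusted P = 0.0036 by limma) at 1 day, or 1.19-fold, and 0.28 (SE 0.036, adjusted P = 0.0019) at 14 days, or 1.21-fold. *Rpl7*, another protein of the large subunit, lay at 0.23, 0.21 and 0.25, then 0.23, 0.20 and 0.29, then 0.17, 0.19 and 0.26 with MgH2, and at 0.18, 0.25 and 0.19 with H2-water. Its mean was between 0.20 and 0.24 in the 4 groups, with adjusted P between 0.0013 and 0.0057 by limma.

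*Rpl4*, whose protein lines the tunnel through which the new peptide leaves the ribosome, was higher with MgH2. It measured 0.088, 0.22 and 0.27 at 1 day, 0.20, 0.22 and 0.34 at 3 days and 0.17, 0.27 and 0.26 at 7 days. With H2-water it measured 0.085, 0.18 and 0.075 and was not called. Its means of 0.19, 0.25 and 0.23 with MgH2 passed the test (adjusted P = 0.027, 0.0042 and 0.0044 by limma), and all 12 arrays were above 0. *Rpl5* encodes a protein that joins RPL11 on the smallest rRNA of the large subunit, a complex that also binds MDM2. Its means were 0.17, 0.14 and 0.14 with MgH2 (adjusted P = 0.033, 0.041 and 0.033 by limma), whereas *Rpl11* was not called at any time, with means between -0.031 and 0.065.

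*Rps14*, a protein of the small subunit at the mRNA channel, had the highest mean of the genes tested at 1 and 3 days. Its ratios were 0.43, 0.35 and 0.46 at 1 day, 0.13, 0.19 and 0.59 at 3 days, 0.10, 0.11 and 0.35 at 7 days, and 0.021, 0.38 and 0.11 with H2-water. One array was well above the other two at 3, 7 and 14 days, and the 4 groups overlapped. The mean of 0.41 at 1 day was 1.33-fold (SE 0.094, adjusted P = 0.024), the mean of 0.31 at 3 days also passed (adjusted P = 0.040), and those of 0.19 and 0.17 did not (adjusted P = 0.16 and 0.31, all by limma). *Rps10*, another protein of the small subunit, was also highest in replicate 3 of each MgH2 group, with 0.21, 0.18 and 0.26 at 1 day, 0.12, 0.12 and 0.36 at 3 days and 0.12, 0.10 and 0.33 at 7 days. Its 3 means with MgH2, 0.22, 0.20 and 0.19, were called (adjusted P = 0.041, 0.029 and 0.033 by limma), and its mean with H2-water was 0.041.

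*Rpl35a* was called higher at 1 day only, at 0.24 (SE 0.051, adjusted P = 0.020 by limma), with means between 0.12 and 0.14 in the other groups that were not called. *Rps15* was called at 3 and 7 days (0.16 and 0.17, adjusted P = 0.022 and 0.013 by limma). *Rps6*, whose protein is the substrate of the S6 kinases, was called at the same times (0.11 and 0.12, adjusted P = 0.048 and 0.025 by limma).

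The genes of the acidic stalk lay below 0. The stalk is the flexible arm of the large subunit that recruits the elongation factors, built of RPLP0 at its base with copies of RPLP1 and RPLP2. *Rplp1* measured -0.16, -0.13 and -0.11 at 1 day, -0.15, -0.15 and -0.12 at 3 days, -0.20, -0.20 and -0.17 at 7 days, and -0.19, -0.12 and -0.17 with H2-water. The arrays of each group lay close together, and its means of -0.13, -0.14, -0.19 and -0.16 were called in all 4 comparisons (adjusted P = 0.022, 0.0082, 0.0013 and 0.010 by limma). *Rplp0* measured -0.11, -0.062 and -0.088 at 1 day, -0.19, -0.13 and -0.053 at 3 days, -0.22, -0.13 and -0.082 at 7 days, and -0.14, -0.15 and -0.16 with H2-water, and was called at 3, 7 and 14 days. *Rplp2* lay between -0.16 and -0.054 on the 12 arrays and was called only with H2-water (mean -0.14, adjusted P = 0.021 by limma). With H2-water the stalk genes made up 3 of the 5 genes called lower.

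*Rps4x*, the X-linked gene of a small-subunit protein, was the other gene called lower in all 4 comparisons. It measured -0.18, -0.19 and -0.13 at 1 day, -0.17, -0.20 and -0.11 at 3 days, -0.13, -0.14 and -0.13 at 7 days, and -0.18, -0.16 and -0.15 with H2-water. Its means lay between -0.17 and -0.13, with adjusted P between 0.0058 and 0.011 by limma. *Rpl3*, whose protein reaches towards the peptidyl transferase center, had the lowest mean of the genes tested at 3 and 7 days. At 3 days it measured -0.26, -0.34 and -0.15 (mean -0.25, adjusted P = 0.0035) and at 7 days -0.21, -0.26 and -0.22 (mean -0.23, adjusted P = 0.0033, both by limma). At 1 day and with H2-water its means of -0.095 and -0.15 were not called. *Rpl10* and *Rpl19* were called lower at 3 and 7 days, with means between -0.13 and -0.093, and *Rpl39*, a short protein of the exit tunnel, at 7 days only (-0.14, adjusted P = 0.025 by limma). The ratio of *Rpl10* turned to 0.16, 0.042 and 0.025 at 1, 3 and 7 days after normexp and loess.

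**Figure D3:**
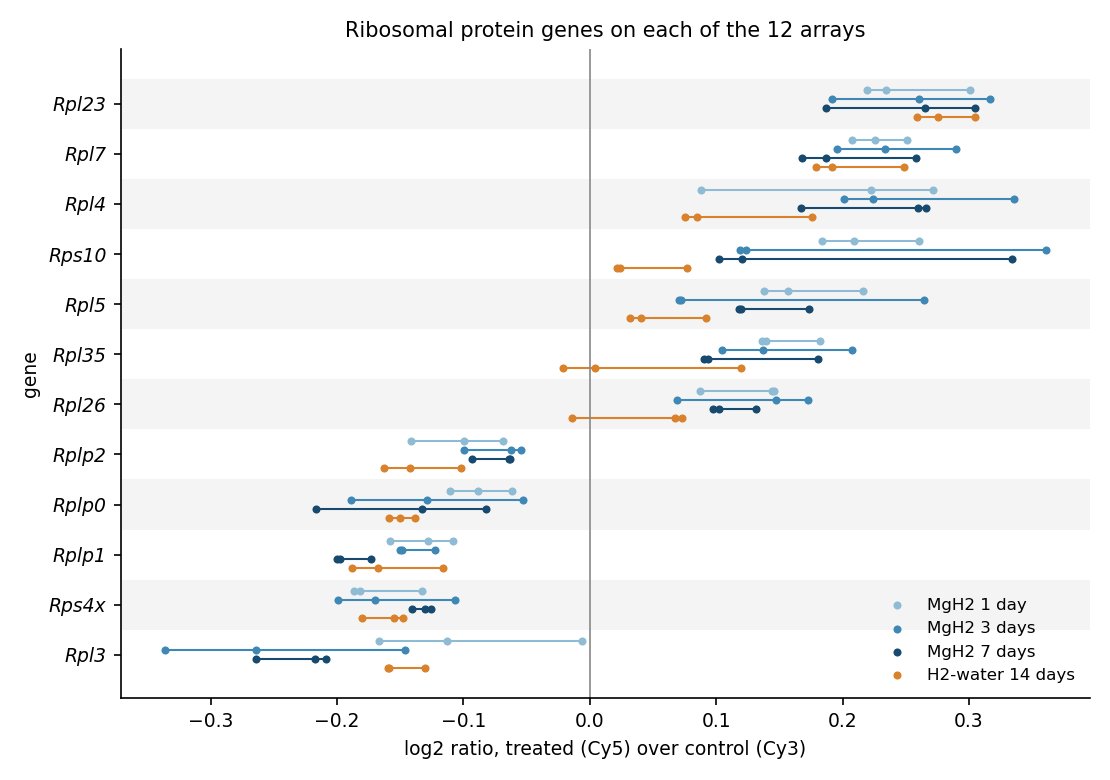
Log2 ratio of the treated over the control pool (horizontal axis) on each of the 12 arrays for the ribosomal protein genes called at 3 or 4 times, with *Rpl3* and *Rplp2* added (vertical axis). Points are arrays, colored by group, and lines join the lowest and the highest array of a group. *Rpl23* lies between 0.19 and 0.32 on all arrays, and *Rplp1* between -0.20 and -0.11.

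The probes of a gene did not always give the same ratio. Among the 50 genes with several probes that could be compared, all probes had the same sign in 32, 30, 28 and 26 genes at 1, 3, 7 and 14 days. Among the genes called, this was so for 4 of 5, 7 of 11, 7 of 13 and 2 of 4. The 3 probes of *Rplp0* were below 0 in every group, at -0.087, -0.058 and -0.054 after 1 day and -0.15, -0.16 and -0.12 with H2-water. For *Rpl23*, in contrast, only the brightest probe was raised. Its other 2 probes lay at 0.0054 and -0.019 after 1 day, and at 0.0055 and -0.11 after 7 days, when the brightest was at 0.25. The 4 probes of *Rpl7* lay at 0.23, 0.0067, 0.18 and 0.058 after 1 day, and the 2 of *Rpl35a* at 0.24 and 0.21. With the mean of all probes of a gene in place of the brightest, 10, 17, 19 and 7 genes were called. In that fit 8.95%, 22.7%, 28.9% and 8.00% of everything tested was called. Ribosomal protein genes have many processed pseudogenes, and which transcripts each probe binds was not tested. *Rplp1*, *Rps4x*, *Rpl3*, *Rpl4*, *Rps14* and *Rps10* had 1 probe each.

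**Figure D4:**
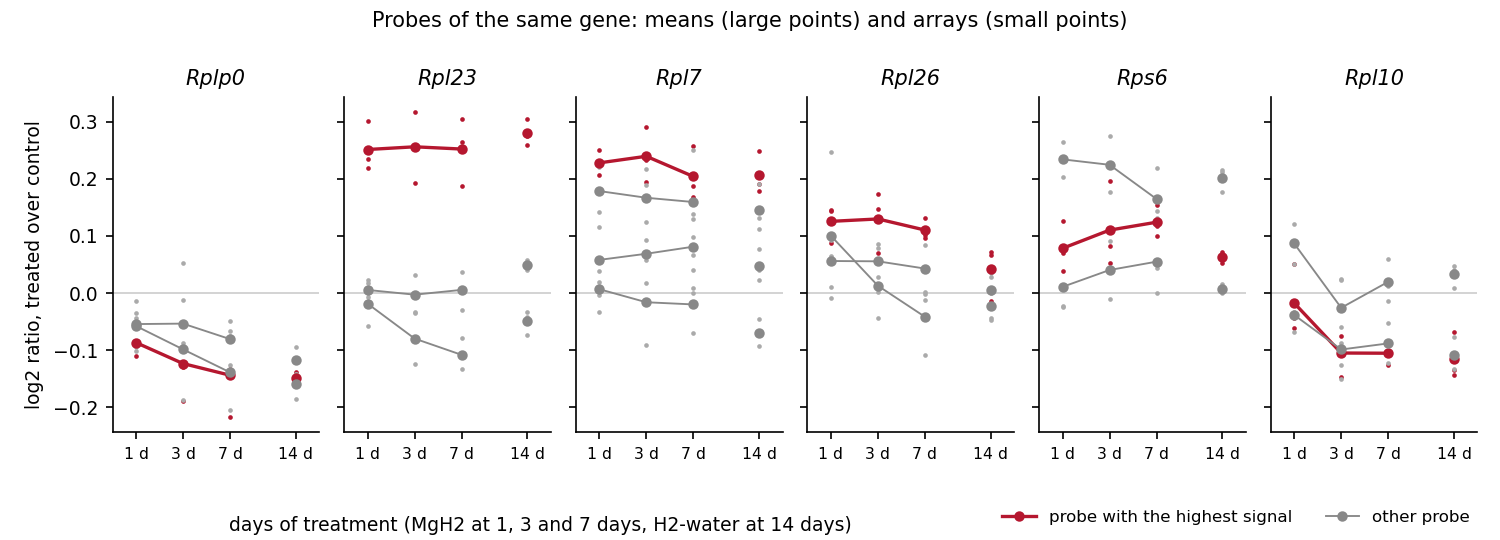
Log2 ratio of the treated over the control pool (vertical axis) by days of treatment (horizontal axis) for each probe of 6 ribosomal protein genes. Large points are means over 3 arrays, small points single arrays, and red marks the probe with the highest signal, which represents the gene. The 3 probes of *Rplp0* lie below 0 throughout, while 1 of the 3 probes of *Rpl23* is raised.

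No ribosomal protein gene differed between the times at an adjusted P under 0.05. Between 3 days and 1 day 0 of 79 were called (0.0208% of all probes), between 7 days and 1 day 0 of 79 (6.98% of all probes), between 7 and 3 days 0 of 79 (0% of all probes), and between H2-water at 14 days and MgH2 at 7 days 0 of 78 (6.61% of all probes). At an unadjusted P under 0.05 there were 3, 4, 0 and 7 genes (limma), or 3.80%, 5.06%, 0% and 8.97% of them, compared with 15.4%, 25.2%, 4.74% and 24.8% of all probes. The lowest adjusted P was 0.066 for *Rpl22l1* between 7 days and 1 day and 0.058 for *Rpl14* between H2-water and 7 days. *Rpl14* was at 0.16 with 7 days of MgH2 and at -0.027 with H2-water. The differences between times spread less over these genes than over all probes, with an SD of 0.054, 0.068, 0.034 and 0.067 compared with 0.20, 0.25, 0.14 and 0.25. The arrays of 1 day shared no slide with those of 7 days. The H2-water arrays had a slide and a version of the extraction software of their own. In those contrasts the groups cannot be told apart from the slides, nor H2-water from the software version. Within the slide that carried the 3 arrays of 1 day and replicate 1 of 3 days, the median difference of the genes, 3 days minus 1 day, was -0.038 (0.0024 over all probes). Another slide carried replicates 2 and 3 of 3 days with replicates 1 and 2 of 7 days, and the difference, 7 minus 3 days, was -0.044 (-0.0054 over all probes). This value rested on replicate 3 of 3 days, since against replicate 2 alone it was 0.0032 and against replicate 3 alone -0.088, a division made after seeing the data. With the replicate number as a block, 2 genes were called lower with H2-water than after 7 days of MgH2, and 0 in the other contrasts.

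The ratios of single genes under the drinking water resembled those under the gavage. Over the 78 genes, the mean ratios with H2-water correlated with those after 1, 3 and 7 days of MgH2 at a Pearson r of 0.72, 0.76 and 0.75 (Spearman rho 0.67, 0.68 and 0.71). Genes are not independent replicates, and the points share the dye orientation, the probes and the array format. Over all 18397 probes r was 0.33, 0.29 and 0.31, and over the 852 brightest other probes 0.60, 0.64 and 0.68. Of the 24 genes called after 7 days of MgH2, *Rpl23*, *Rpl7*, *Rplp0*, *Rplp1* and *Rps4x* were also called with H2-water. The share of all probes called in both is not given here, so no conclusion is drawn from this overlap. *Rpl27* was called with H2-water alone, at -0.16, -0.16 and -0.14, while it lay between 0.0065 and 0.046 after 7 days of MgH2.

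**Figure D5:**
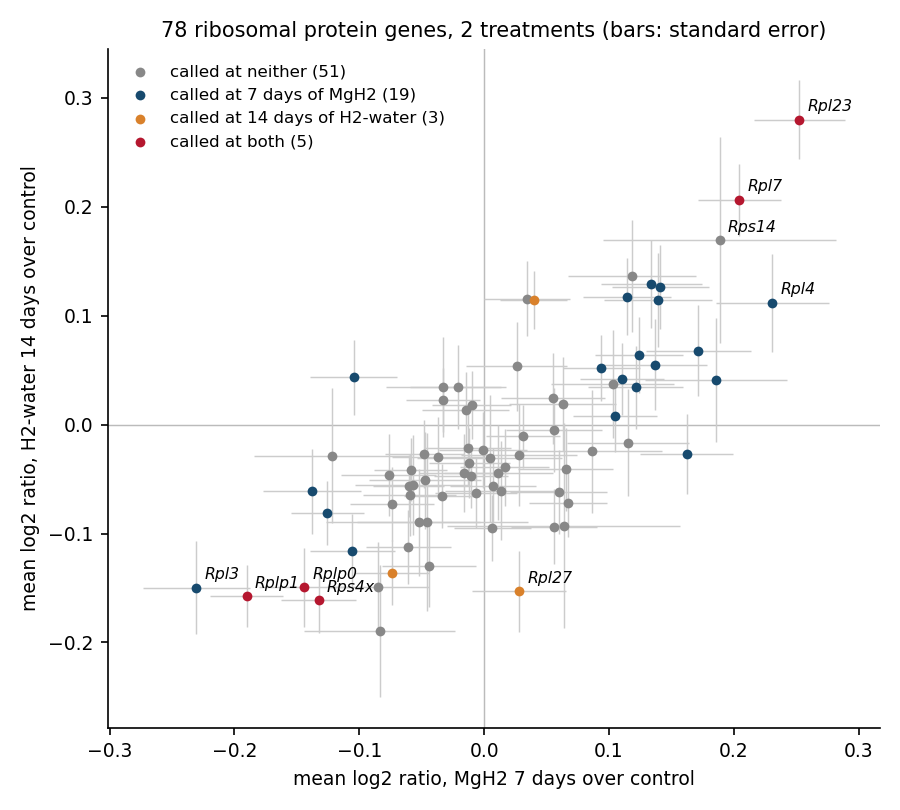
Mean log2 ratio after 7 days of MgH2 (horizontal axis) and after 14 days of H2-water (vertical axis) for 78 ribosomal protein genes, with bars for the standard error and colors for the calls. The 5 genes called in both comparisons lie at the ends of the same diagonal, *Rpl23* and *Rpl7* above 0 and *Rplp0*, *Rplp1* and *Rps4x* below. The share of all probes called in both is not given.

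From array to array the genes moved together. When each array was taken as its deviation from the mean of its group, the mean correlation between 2 ribosomal protein genes was 0.38 over the 12 arrays, whereas it was 0.0020 between all probes and 0.010 between the brightest other probes. Part of this movement was seen in the control channel. In replicate 3 of the MgH2 groups, the Cy3 signal of the genes lay 0.067, 0.087 and 0.061 below the mean of its group at 1, 3 and 7 days (median over the genes, log2), and 8, 4 and 6 of the 78 genes were above that mean. In the Cy5 channel of these arrays the medians were -0.047, -0.012 and -0.024. Over all probes the medians were -0.019, -0.016 and -0.0088 in Cy3 and -0.0068, -0.00037 and -0.0058 in Cy5. Other arrays moved too. In replicate 2 of 1 day, 77 of the 78 genes lay above the group mean in both channels (medians 0.063 in Cy3 and 0.055 in Cy5). The labels do not say whether the controls of different days shared animals or RNA. The Cy3 deviations of arrays with the same number correlated at r between 0.32 and 0.67 among the MgH2 groups over all probes, while those of Cy5 correlated at r between -0.30 and 0.18. The 3 MgH2 comparisons are therefore not treated here as repeats of each other.

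Paralogs stand in for the main protein in some tissues. *Rpl22l1*, the paralog of *Rpl22*, measured 0.19, 0.16 and 0.18 after 1 day, -0.21, -0.083 and 0.038 after 3 days, -0.040, -0.19 and -0.13 after 7 days, and -0.038, 0.14 and -0.18 with H2-water. None of its means passed the test (adjusted P between 0.11 and 0.83 by limma). *Rpl22* itself lay at means of 0.072, 0.066, 0.056 and -0.0051. *Rps27l*, a paralog of *Rps27* and a target of p53, was below 0 on all 12 arrays without a call, with means between -0.088 and -0.018, while the means of *Rps27* ran from -0.024 to 0.086. *Rpl7l1* had means between -0.089 and -0.032, and arrays from -0.19 to 0.17.

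Several of these genes are used to normalize PCR measurements. Of the 7 often chosen, *Rps18* and *Rps29* were not called at any time, with means from -0.061 to 0.040 and from -0.066 to -0.0016. *Rpl13a* was not called either, with means of 0.10, 0.077, 0.12 and -0.016. *Rpl32* was called higher at 3 and 7 days (0.19 and 0.13), *Rpl19* lower at 3 and 7 days (-0.093 and -0.13), *Rplp0* lower at 3, 7 and 14 days, and *Rpl4* higher with MgH2 at every time. *Rpl4* and *Rplp0* lay on opposite sides of 0 on all 12 arrays. *Rpsa*, whose protein is also known as the laminin receptor, was not called, with means from -0.13 to -0.032.

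The other genes that serve the making and use of ribosomes were taken from lists written with earlier results of these data known. Of the ribosomal proteins outside the symbol rule, *Rack1*, a scaffold of the small subunit, was called higher with MgH2 (0.23, 0.19 and 0.15), while *Fau* and *Rpl36al* were not called. Of 19 translation factors with TOP mRNAs, 1, 3, 6 and 3 were called higher and 0, 3, 1 and 1 lower at 1, 3, 7 and 14 days, with medians of 0.049, 0.022, 0.029 and 0.054. The shares were 5.26%, 15.8%, 31.6% and 15.8% higher, beside 5.15%, 12.3%, 15.3% and 4.92% of all probes, and with only the arrays compared in the fit 0, 0, 2 and 0 were called. *Eif3k*, of the initiation complex, was higher in all 4 comparisons (0.20, 0.22, 0.18 and 0.16). *Tpt1*, whose mRNA is among the best-known of the TOP class, was lower at 3, 7 and 14 days (-0.27, -0.30 and -0.26).

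Of 60 ribosome biogenesis factors, 59 were tested with MgH2 and 57 with H2-water. Those called higher numbered 1, 9, 14 and 4 (1.69%, 15.3%, 23.7% and 7.02% of those tested), and those called lower 2, 0, 1 and 1. Of all probes 5.15%, 12.3%, 15.3% and 4.92% were called higher and 4.24%, 11.1%, 14.3% and 3.91% lower. The share of the factors called higher lay below that of all probes at 1 day, near it at 3 days and above it at 7 and 14 days. The medians of the factors were -0.0098, 0.10, 0.069 and 0.0058, compared with -0.0030, 0.0033, 0.0087 and 0.0024 over all genes. *Gnl2*, a GTPase of large-subunit assembly, was higher at 3, 7 and 14 days (0.37, 0.43 and 0.25, adjusted P = 0.0003, 9e-05 and 0.0060 by limma), and *Surf6*, a nucleolar protein, at the same times (0.42, 0.35 and 0.27). *Wdr43* was higher at 3 and 7 days (0.48 and 0.41), and *Fbl*, the methyltransferase fibrillarin, was lower at 1 and 14 days (-0.22 and -0.19). With only the 3 arrays compared in the fit, 0, 0, 5 and 0 of the biogenesis factors were called, and without 1 replicate between 4 and 12 at 7 days. Of 18 genes of RNA polymerase I and its factors, *Ubtf*, which opens rRNA genes for transcription, was higher in all 4 comparisons (0.70, 0.82, 0.80 and 0.56).

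Of 22 genes of mTOR and MYC control, 3, 4, 7 and 2 were called higher and 0, 1, 2 and 2 lower. The shares higher were 13.6%, 19.0%, 31.8% and 9.52% of those tested, beside 5.15%, 12.3%, 15.3% and 4.92% of all probes. With only the arrays compared in the fit 0, 1, 5 and 1 were called in either direction, and without 1 replicate between 3 and 5 at 7 days. *Rheb*, the activator of mTOR, was higher in all 4 comparisons (0.28, 0.26, 0.24 and 0.37), as was *Eif4e*, the cap-binding protein (0.28, 0.37, 0.32 and 0.21). *Eif4ebp3*, an inhibitor of EIF4E, was higher with MgH2 (0.57, 0.92 and 0.82) and lower with H2-water (-0.38). *Myc*, which drives ribosome production, was higher at 7 days of MgH2 (0.66, adjusted P = 0.027) and lower with H2-water (-0.95, adjusted P = 0.016, both by limma). *Larp1*, which binds the TOP motif, was higher at 3 and 7 days (0.20 and 0.23), and *Tsc1* at 7 days (0.34). Those called lower with MgH2 were *Mtor* at 3 days (-0.19) and *Deptor* and *Eif4ebp2* at 7 days (-0.18 and -0.15).

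Cell type markers moved in some of the same comparisons. In a bulk sample, fewer cells of a type and less RNA per cell cannot be told apart. Of 5 hepatocyte markers 4 were above background on all arrays, and *Alb*, *Ttr* and *Trf* were called higher at 7 days, with the summed ratio of the list between 0.080 and 0.35 on the 3 arrays. These calls were 60% of the list, beside 15.3% of all probes. Of 9 markers of leukocytes and Kupffer cells, 1, 5, 7 and 0 were called lower at 1, 3, 7 and 14 days and 0 higher. The shares lower were 11.1%, 55.6%, 77.8% and 0%, beside 4.24%, 11.1%, 14.3% and 3.91% of all probes. The summed ratio of this list ran from -0.31 to 0.00033, from -0.41 to -0.32, from -0.52 to -0.37 and from -0.18 to 0.18 in the 4 groups. Of 6 stellate and endothelial markers, 3 were called lower at 3 and 3 at 7 days, while *Stab2* was called higher at 3 days (0.22, adjusted P = 0.038 by limma). The lower calls were 50% of the list at both times, beside 11.1% and 14.3% of all probes. How the marker counts depend on the arrays fitted is not given here. Of 4 erythroid markers only *Alas2* was called, lower at 3, 7 and 14 days, and the summed ratio ranged from -0.93 to 0.44 on the arrays of 7 days. Of 2 lymphocyte markers tested, *Cd79b* was called lower at 3 and 7 days (-0.52 and -0.48). The other, *Cd3e*, was called higher at 3 days (0.11) and lower with H2-water (-0.16). Of 2 pancreas acinar markers tested, *Ctrb1* was called lower at 3 days (-0.11). Among lymphocyte markers *Cd3g*, and among pancreas acinar markers *Cela1* and *Prss2*, did not have both channels above background on any array. The part of these cell types in the ratios of the ribosomal protein genes was not tested.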

How the data were processed

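The labels assign 12 two-color Agilent arrays to 4 groups of 3. The deposited intensities, log10 ratios and log2 ratio table are output of Feature Extraction, run by the authors with background correction and dye normalization within an array. Its version was 10.10.1 by the labels. The files give 10.10.1.1 for the MgH2 arrays and 10.7.3.1 for the H2-water arrays. The P values deposited with this output cover single arrays and served for no test. Control spots and 160 to 244 spots per array marked as non-uniform or as outliers were left out here, and spots of the same probe were averaged as log2 ratios. Probes were named through their RefSeq records. The records of 8588 probes differ between the annotation versions of the files. The later record was used, or the earlier one where the later was not found among the RefSeq genes. Since all mice of a pool were mixed, P values measure the spread between pools and not between mice. The fit takes the arrays as independent, although MgH2 arrays with the same number correlated, as given below. The shared spread thus rests on fewer independent values than the fit assumes.

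A fit of all 12 arrays was made in limma (version 3.58.1, R 4.3.3) with two-sided tests. P values were adjusted by the Benjamini-Hochberg method over every probe that was above background, in both channels, on the arrays compared. The fit was tested on simulated data. The members and gene lists were chosen with earlier results of these data known. Members are named when they were among the 5 highest or 5 lowest calls of a comparison, among the 3 highest or lowest means of a group, paralogs or their parents, common reference genes, or stalk genes, *Rpsa*, *Rps6*, *Rpl5* and *Rpl11*. From the other lists only called genes were named, at most 3 in each direction per comparison, with marker genes. *Rpl14*, *Rpl35*, *Rpl38* and genes named as not called were chosen after their values were seen. Arrays of 1, 3 and 7 days with the same number correlated (r from 0.37 to 0.65 over 9 pairs), as did those of 7 and 14 days less clearly (r from 0.035 to 0.29), and the replicate number was used as a block for contrasts only as an alternative. Other alternatives were the scaling, the background correction, the filters, the probes of a gene, the slide as a random block, the arrays fitted, and the methods' t-test. The promoter table is from RefSeq, and no genome was used. Values of a few single genes are not reported here.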

Additional observations from a re-analysis of the deposited data

Results flagged for a closer look

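Among the 36 genes chosen to be named, there were 4 cases in which all 3 arrays of 1 group lay on one side of 0 and all 3 of another group on the other side. Over all 78 genes there were 19 such cases in 12 genes, summed over all pairs of groups. In the pairs 1 with 3, 1 with 7 and 1 with 14 days, 0, 3 and 5 genes lay so (3.79%, 7.12% and 4.40% of all probes). In the pairs 3 with 7, 3 with 14 and 7 with 14 days these were 1, 4 and 6 genes (0.875%, 6.40% and 7.36%). *Rpl22l1* had a mean of 0.18 after 1 day of MgH2 (0.16 to 0.19) and of -0.12 after 7 days (-0.19 to -0.040), a difference of -0.30 with an adjusted P of 0.066 by limma. *Rpl27* had a mean of -0.096 after 1 day (-0.17 to -0.036) and of 0.028 after 7 days (0.0065 to 0.046), with an adjusted P of 0.18 for the difference. With H2-water *Rpl27* had a mean of -0.15 (-0.16 to -0.14), which differed from that after 7 days of MgH2 by -0.18 with an adjusted P of 0.068. *Rps18* had a mean of 0.040 after 1 day (0.0083 to 0.063) and of -0.061 with H2-water (-0.093 to -0.018), and this difference was not tested. These differences did not pass the threshold or were not tested, and many of the 36 genes were chosen by their values.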

How the results depend on the processing

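The counts of ribosomal protein genes called depended on the number of arrays and on the filter. With only the arrays of a comparison fitted, 0, 0, 0 and 1 genes were called at 1, 3, 7 and 14 days in place of 12, 21, 24 and 8. The spread then rests on 3 arrays, and 0.514%, 1.504%, 11.2% and 2.45% of all probes were called. Without a filter on dim probes the counts were 3, 6, 11 and 5, while 1.81%, 6.16%, 21.7% and 5.88% of all probes were called. With 1 replicate left out they ran from 2 to 3 at 1 day, 7 to 12 at 3 days, 8 to 10 at 7 days, and 2 to 2 at 14 days. The methods' t-test called 10, 15 and 3 genes at 3, 7 and 14 days without adjustment and 0 in each group after Benjamini-Hochberg adjustment. Without adjustment it called 12.6%, 18.8% and 6.80% of all probes at those times. After adjustment 0.519%, 0.00515%, 0% and 0% of all probes were called at 1, 3, 7 and 14 days. The absence of calls in that test is therefore not particular to these genes. With channels divided by their totals 15 were called at 7 days and 13 at 14 days (29.5% and 9.63% of all probes). After normexp and loess 21 were called at 1 day and 16 at 14 days (9.89% and 12.8% of all probes). With the slide as a random block these were 19 and 17 (15.4% and 12.8%). The cause of these differences was not tested. Between times, normexp and loess called 1 gene between 7 days and 1 day and 3 between H2-water and 7 days, the slide block 1 and 2, and no filter 0 and 1. The matching shares over all probes are not given for these contrasts, so no conclusion is drawn from the counts.

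With the replicate number as a block, 2 genes were called between H2-water and 7 days of MgH2, in place of 0, and 0 in the other 3 contrasts. The median ratio of the genes at 1 day, 0.030, moved to -0.0050 with channels divided by their totals and to 0.060 after normexp and loess. *Rpl10* turned to 0.16, 0.042 and 0.025 at 1, 3 and 7 days after normexp and loess. Of 132 results for single named genes, 50 were called. Of these 50 calls, between 29 and 30 were lost without 1 replicate, 49 with only the arrays compared, 50 with the methods' t-test after Benjamini-Hochberg adjustment, 30 without a filter on dim probes, 15 with channels divided by their totals and 0 with the deposited table. The counts for the other gene lists were followed under the same settings, an addition made after seeing the data, and 407 of 540 stayed within 1.5 times. Small differences between pools cannot be resolved with 3 arrays per group.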
